A study of Mus musculus with 6 samples.

Results

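The 10 genes studied here mark the Mullerian lineage or serous ovarian tumours, and 8 of the 10 had a probe set that the platform annotation names with a single symbol: Pax8, Emx2, Folr1, Muc1, Ovgp1, Wfdc2, Slpi and Lcn2. The other two are not named there and were not analysed here. The array represents 18194 genes in all. Signals came from 6 mouse Affymetrix arrays of ovarian surface epithelial cells from tumours, which had been freed by trypsin, plated and harvested unpassaged, and every title begins with P/K, a prefix that the labels do not spell out. Cells of the wild-type group expressed wild-type p53 (2 arrays, age 9 weeks). Heterozygous cells expressed wild-type p53 and the R172H mutant (2 arrays, 9 and 12 weeks), and homozygous cells the R172H mutant alone (2 arrays, 4 weeks), so genotype and age cannot be told apart for the homozygous cells. The background strain was mixed in all groups. The labels name neither the promoter that drives any transgene nor whether the arrays of a group came from separate animals, so p-values measure the spread between these arrays only.

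The Mullerian ducts give rise to the oviduct, the uterus and the upper vagina, while the surface epithelium of the ovary is a mesothelium that derives from the coelomic lining. Serous carcinomas of the ovary resemble oviduct epithelium and commonly express transcription factors of the duct, such as PAX8, together with secreted and surface proteins used as clinical markers, among them HE4 (the product of Wfdc2), the folate receptor alpha (Folr1) and mucin 1. In mice, Emx2 is needed for the urogenital tract to form, and Ovgp1 encodes oviductin, a glycoprotein that oviduct secretory cells release onto the egg and embryo.

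The 2 homozygous arrays were unlike the rest and unlike one another, which touches every comparison given here. Over tested genes, the log2 difference within the pair had an SD of 1.30 for homozygous arrays, 0.595 for the wild-type pair and 0.552 for the heterozygous pair, and the closest pair of all was wild-type array 2 with heterozygous array 1 (0.315). Median signals ran from 41.1 to 60.6. As a sign of RNA quality, the beta-actin control differed between its 3' and 5' probe sets by 0.588 and 0.387 (log2) in homozygous samples and by 0.660 to 0.957 in the remaining arrays. The source names of the homozygous samples name another gene than p53; groups follow the titles. A signal of 25 was taken as background, just over the highest value (24.5) of 3 bacterial control probe sets, those named Trpn. Other bacterial controls were not used to set it.

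Of the 8 markers, 5 lay above background in all 6 arrays, namely Pax8, Emx2, Folr1, Ovgp1 and Slpi. Over all genes of the array the share above 25 in every array was 59.4%. Wfdc2 and Lcn2 were above background in the 4 wild-type and heterozygous arrays and under it in both homozygous arrays. Muc1 passed it only in heterozygous array 2. By group, 7 of the 8 markers had both arrays above background in wild-type cells, 7 in heterozygous cells and 5 in homozygous cells. With a stricter level of 50, the number above it in all arrays was 4, Pax8 dropping out through homozygous array 1.

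**Figure D1:**
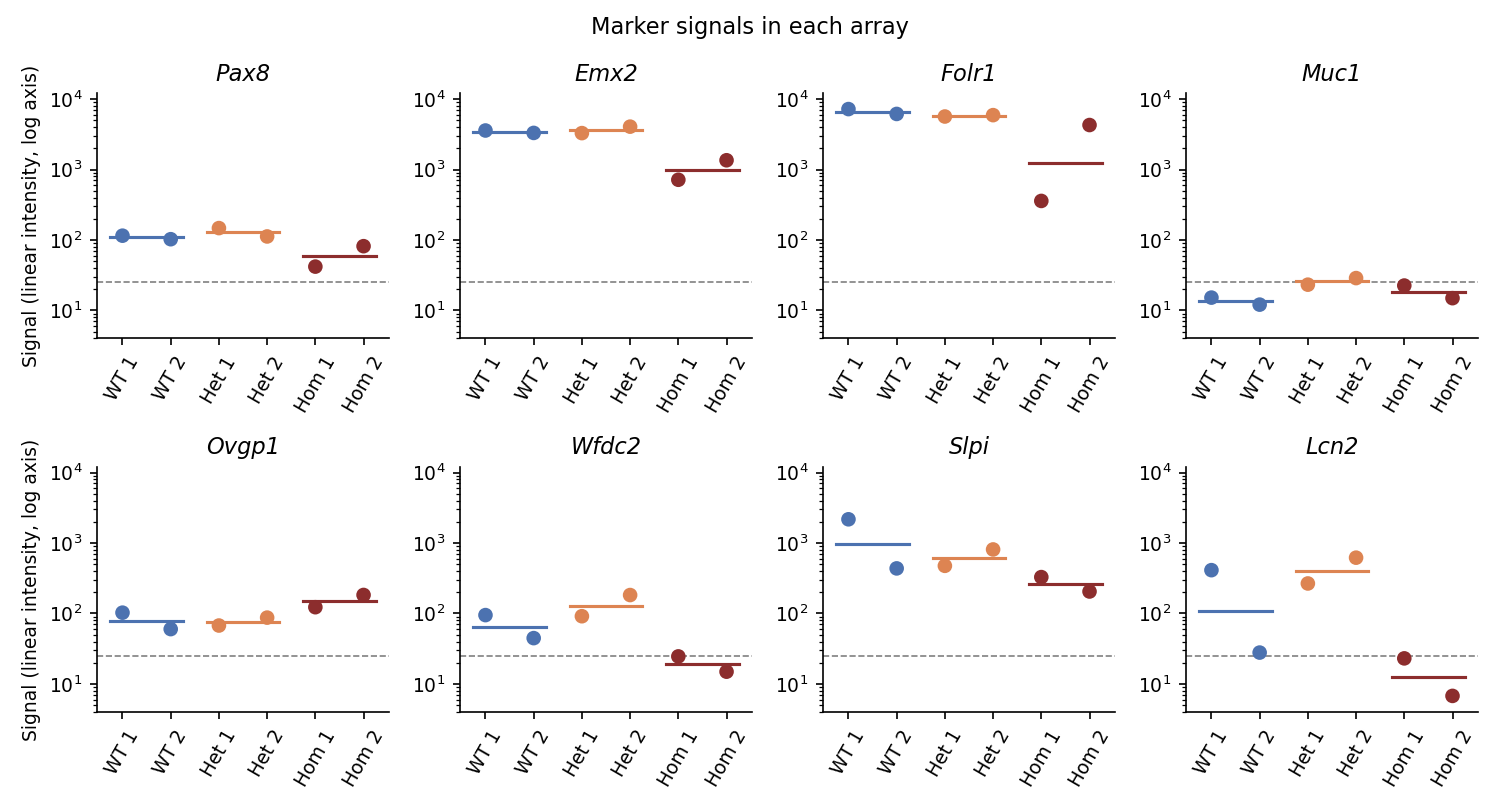
Each panel plots the signal of a marker (linear intensity on a log axis) in the wild-type (WT), heterozygous (Het) and homozygous (Hom) arrays, with the geometric mean of each group as a bar and background (25) as a dashed line. Wfdc2 and Lcn2 lie under the dashed line in both homozygous arrays, and Ovgp1 is the only marker whose homozygous arrays both lie above the other 4.

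Pax8 and Emx2 are the transcription factors among the markers. Pax8, a paired-domain factor of the Mullerian duct, the kidney and the thyroid, measured 115 and 103 in wild-type, 148 and 112 in heterozygous, and 41.9 and 81.7 in the homozygous arrays. All 6 values are low, and both homozygous arrays lay below the other 4. Its second probe set gave between 12.2 and 28.3, above background only in homozygous array 2, and so carries no level that could be compared. Emx2, a homeodomain factor, measured 3581 and 3309 in wild-type, 3289 and 4062 in heterozygous, and 716 and 1354 in homozygous arrays. The 4 arrays with a wild-type allele thus lay close together, and the homozygous pair lay far under them without overlap.

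Of all tested markers Emx2 came closest to passing the test. Its log2 difference was -1.81 ± 0.36 (SE; 95% interval -2.73 to -0.88) between homozygous and wild-type cells, a signal 3.50-fold lower, with an adjusted p of 0.0651 by limma with Benjamini-Hochberg adjustment over 10916 genes. Between homozygous and heterozygous cells the difference was -1.89 ± 0.36 (-2.81 to -0.97), a signal 3.71-fold lower, with an adjusted p of 0.0571 by limma. Neither passes a threshold of 0.05. Both pass with 16 added to the signals (adjusted p 0.0497 and 0.0436) or with a stricter filter on dim genes (0.0461 and 0.0401), and without homozygous array 2 (0.00548 and 0.00462). Over all alternatives the limma adjusted p ran from 0.00548 to 0.301 against wild-type cells and from 0.00462 to 0.322 against heterozygous cells, always with the homozygous cells lower. For Pax8 the differences were -0.89 ± 0.38 (-1.87 to 0.08; limma adjusted p 0.197) and -1.14 ± 0.38 (-2.11 to -0.16; limma adjusted p 0.126). Both rest on homozygous array 1: without array 2 they passed (-1.38 and -1.62; limma adjusted p 0.0306 and 0.0183), and without array 1 they were -0.41 and -0.66 (limma adjusted p 0.468 and 0.257). With the dim second probe set averaged in, they were -0.15 and -0.32.

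The region around the start sites of these factors is shown because their homozygous signals lay lower in both arrays. Sequences are from RefSeq on GRCm38.p6, 250 bases before to 50 after the annotated start, read along the gene's strand, and 7 of the 8 markers had an entry. Capitals mark matches, on either strand, to 7 motifs: the TATA box TATAAA, the CCAAT box, the GC box GGGCGG, the C/EBP core TTNCNNAA, the AP-1 site TGACTCA, the NF-kappaB site and the p53 half-site. Emx2 lies at chr19:59458440-59458739 on the plus strand and Pax8 at chr2:24475550-24475849 on the minus strand.
Emx2: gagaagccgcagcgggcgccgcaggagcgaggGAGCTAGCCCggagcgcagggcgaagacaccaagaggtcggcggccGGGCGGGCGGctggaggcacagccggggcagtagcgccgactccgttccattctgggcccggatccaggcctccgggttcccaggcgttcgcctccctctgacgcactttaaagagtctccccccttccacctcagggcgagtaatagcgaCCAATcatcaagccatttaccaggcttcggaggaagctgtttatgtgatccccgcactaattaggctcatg
Pax8: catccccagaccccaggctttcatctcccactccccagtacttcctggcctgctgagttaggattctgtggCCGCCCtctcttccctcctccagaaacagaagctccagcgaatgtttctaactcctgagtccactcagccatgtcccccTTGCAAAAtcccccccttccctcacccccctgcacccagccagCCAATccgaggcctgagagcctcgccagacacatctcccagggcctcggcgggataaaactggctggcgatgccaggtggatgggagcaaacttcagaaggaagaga
The Emx2 window is rich in CpG (26 CpG, against a median of 7 over 32851 promoters) and the Pax8 window has 7. Both hold a CCAAT box, which 37.4% of all promoters have, and a GC box, which 35.7% have, the Emx2 window with 2 overlapping GC boxes. The Emx2 window also holds a match to the p53 half-site, as do 8.36% of promoters, and the Pax8 window a C/EBP core, as do 40.7%. These matches describe the letters of the windows only.

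Folr1, the receptor that takes folate into epithelial cells from their surface, separated the homozygous arrays from each other. It measured 7211 and 6153 in wild-type arrays, 5657 and 5917 in heterozygous arrays, and 358 and 4283 in homozygous arrays 1 and 2. Homozygous array 2 thus stood near the other groups and array 1 far below them, an 11.9-fold gap within the group. The groups do not overlap, but the mean difference from wild-type cells was -2.43 ± 1.13 (95% interval -5.28 to 0.42; limma adjusted p 0.220) and from heterozygous cells -2.22 ± 1.13 (-5.07 to 0.63; limma adjusted p 0.243). Both rest on array 1: without it they were -0.64 and -0.43, and without array 2 they were -4.22 and -4.01, which pass (limma adjusted p 0.000688 and 0.000727). The other folate transporters, the reduced folate carrier Slc19a1 and the proton-coupled carrier Slc46a1, were not called in any comparison either.

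Ovgp1 and Muc1 encode heavily glycosylated proteins of the epithelial surface and its secretions. Ovgp1 gave signals of 103 and 60.1 in wild-type, 67.5 and 87.4 in heterozygous and 123 and 183 in homozygous arrays. It is the marker that ran the other way, with both homozygous arrays above the other 4. Its log2 difference was 0.93 ± 0.38 against wild-type cells (-0.03 to 1.89; limma adjusted p 0.180) and 0.97 ± 0.38 against heterozygous cells (0.01 to 1.93; limma adjusted p 0.162), so neither passed, and the sign was positive under every alternative tried. The name of its only probe set ends in s_at, which on this array family means that its probes may match more than 1 transcript. Muc1, a transmembrane mucin of the apical cell surface, measured 15.2 and 12.1 in wild-type, 23.2 and 28.8 in heterozygous, and 22.6 and 14.9 in homozygous arrays. With 5 of 6 values under background its arrays give no level, it did not pass the filter on dim genes, and no fold is given.

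Wfdc2, Slpi and Lcn2 encode small secreted proteins. Wfdc2 and Slpi share the four-disulfide WAP fold of protease inhibitors, and Slpi blocks neutrophil elastase. Lcn2, lipocalin 2, binds bacterial siderophores and so withholds iron. Slpi measured 2173 and 437 in wild-type arrays, 475 and 811 in heterozygous arrays and 328 and 205 in homozygous arrays. Its homozygous pair was the lowest, but wild-type array 1 alone stood high, and wild-type array 2 lay near heterozygous array 1. Lcn2 measured 412 and 27.9 in wild-type, 267 and 620 in heterozygous and 23.1 and 6.77 in homozygous arrays. Wild-type array 2 was thus barely above background and close to homozygous array 1. Wfdc2 measured 94.9 and 44.7 in wild-type, 91.5 and 183 in heterozygous, and 24.6 and 14.9 in homozygous arrays, the homozygous pair again being lowest and under background.

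Against heterozygous cells Lcn2 was at least 16.3-fold lower in homozygous cells, a bound set by the background level since both homozygous arrays lay under it. Lcn2 passed the filter on dim genes through the other groups alone, and its fit did not pass the test (limma adjusted p 0.0914; from 0.0837 to 0.380 over the alternatives). With signals under background raised to 25 the log2 difference was -4.02 (limma adjusted p 0.100). Against wild-type cells Lcn2 was at least 4.29-fold lower (limma adjusted p 0.209), a bound of 16.5-fold with wild-type array 1 alone and of 1.12-fold with array 2 alone. For Wfdc2, which was not tested because its mean signal lay under the filter of 60.2, the bounds were at least 5.17-fold against heterozygous and at least 2.61-fold against wild-type cells. Slpi differed from wild-type cells by -1.91 ± 0.81 (-3.95 to 0.14; limma adjusted p 0.193) and from heterozygous cells by -1.26 ± 0.81 (-3.30 to 0.79; limma adjusted p 0.337). Without wild-type array 1 the first of these was -0.75.

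The windows of Lcn2 and Slpi are shown for contrast with those of the transcription factors, since their arrays differed within groups. Lcn2 lies at chr2:32387690-32387989 and Slpi at chr2:164356458-164356757, both on the minus strand, with the same motifs in capitals.
Lcn2: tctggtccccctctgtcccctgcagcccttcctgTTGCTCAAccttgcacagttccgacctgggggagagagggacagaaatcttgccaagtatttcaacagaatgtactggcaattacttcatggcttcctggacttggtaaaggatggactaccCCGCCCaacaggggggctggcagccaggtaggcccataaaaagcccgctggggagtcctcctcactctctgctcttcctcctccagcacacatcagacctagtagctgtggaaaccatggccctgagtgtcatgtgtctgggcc
Slpi: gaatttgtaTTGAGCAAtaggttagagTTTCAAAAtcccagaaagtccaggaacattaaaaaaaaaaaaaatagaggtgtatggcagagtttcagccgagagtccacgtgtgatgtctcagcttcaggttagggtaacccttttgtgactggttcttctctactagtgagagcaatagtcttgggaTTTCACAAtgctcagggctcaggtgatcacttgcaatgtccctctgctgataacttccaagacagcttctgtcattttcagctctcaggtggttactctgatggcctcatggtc
Lcn2 has 3 CpG and Slpi 2. The Lcn2 window holds a GC box and a C/EBP core. Slpi holds 3 C/EBP cores and no other of the motifs. Over the 7 windows, 4 had a C/EBP core, 5 a GC box, 3 a CCAAT box, 1 TATAAA and 1 a p53 half-site, while 0 had the AP-1 site or the NF-kappaB site, which 5.2% and 8.46% of promoters hold; TATAAA is in 13.6%.

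Heterozygous and wild-type cells. None of the 6 markers that passed the filter was called by limma, and 0 had an unadjusted p under 0.05. Over all genes 0 of 10916 were called, 0% of those tested, and 0.65% had an unadjusted p under 0.05. Emx2 differed by 0.09 ± 0.36 (-0.84 to 1.01), Ovgp1 by -0.03 ± 0.38 (-0.99 to 0.93) and Pax8 by 0.24 ± 0.38 (-0.73 to 1.22), so the intervals allow about a 2-fold change in either direction. Folr1 was lower in both heterozygous arrays by a mean of -0.20 ± 1.13. Wider intervals belonged to Slpi (-0.65 ± 0.81) and Lcn2 (1.92 ± 1.38; -1.58 to 5.43). The Slpi difference turned to 0.51 without wild-type array 1 and the Lcn2 difference to -0.02 without wild-type array 2. Apart from Folr1, which was lower, and Muc1, which was higher at background, the arrays of each marker overlapped between these groups; 26% of all tested genes did not overlap.

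Homozygous cells against the other groups. Again none of the 6 tested markers was called, against wild-type or against heterozygous cells, where 2.67% and 4.09% of all tested genes were called by limma. Lcn2, with its homozygous arrays under background, was left aside here. Of the 5 remaining tested markers, 1 had an unadjusted limma p under 0.05 against wild-type cells (Emx2). Against heterozygous cells 3 of the 5 did (Pax8, Emx2 and Ovgp1). Over all tested genes the shares were 28.9% and 30.6%. In 6 of the 8 markers both homozygous arrays lay below the other 4, and in 1 they lay above, whereas Muc1 overlapped with wild-type cells. Wfdc2 and Lcn2, counted among those below, had both homozygous arrays under background. Among the 6 tested markers, homozygous arrays were lower without overlap in 5 and higher in 1, in either comparison. Over tested genes, 28.9% had both homozygous arrays below the other 4 and 23.4% above. The tested markers had a median log2 difference of -1.86 against wild-type cells and -1.57 against heterozygous cells, beside -0.09 and -0.08 over all tested genes, and putting Lcn2 at its bound left both medians as they were. Both comparisons use the same homozygous arrays, so they do not count as separate evidence.

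**Figure D2:**
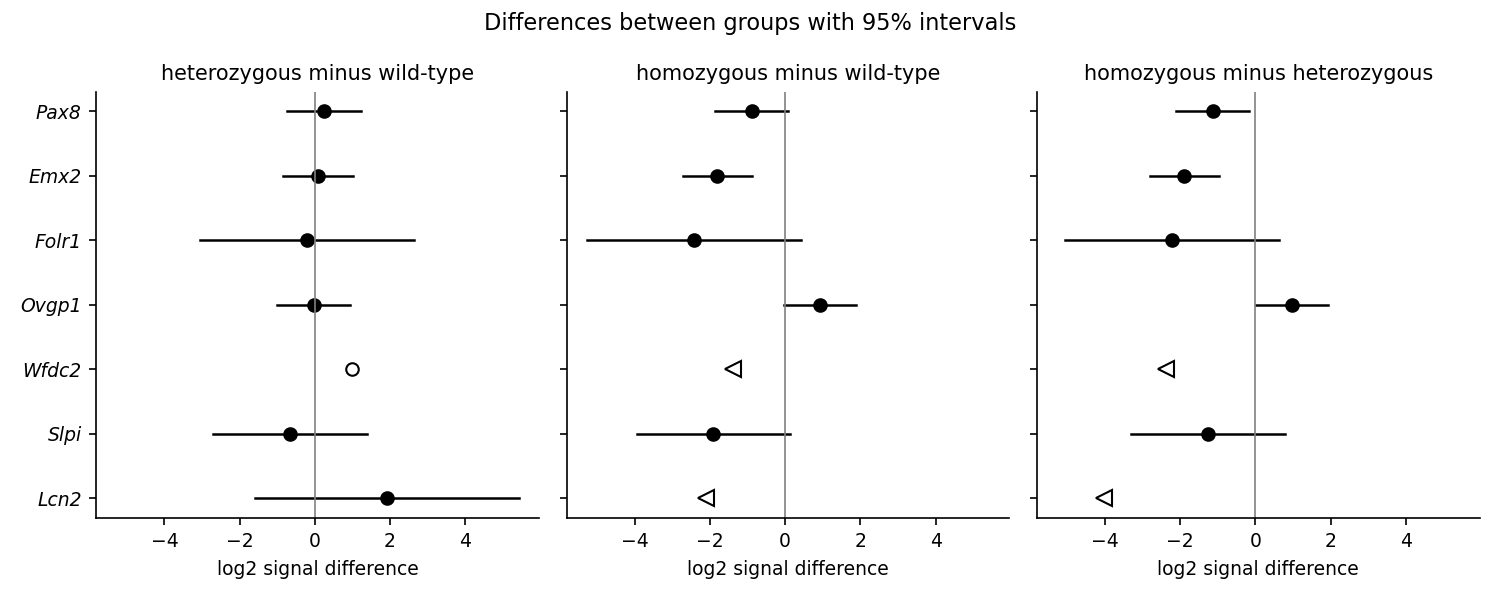
Filled points are log2 signal differences of tested markers with limma 95% intervals in the 3 comparisons of groups; the open circle is Wfdc2, which was not tested, and triangles pointing left are bounds for Wfdc2 and Lcn2, whose homozygous arrays lay under background. Muc1 is not plotted, and the Emx2 intervals lie entirely below 0 in both comparisons with homozygous cells.

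The spread within groups set how firmly each marker could be placed. Between the wild-type arrays, Lcn2 differed 14.8-fold, a gap reached by 0.0275% of tested genes, and Slpi 4.98-fold, reached by 0.55%. Wfdc2 differed 2.12-fold there and Ovgp1 1.71-fold, against a median gap of 1.23-fold over tested genes. The same 3 secreted proteins were higher in heterozygous array 2 than in array 1, by 2.32-fold for Lcn2, 2.00-fold for Wfdc2 and 1.71-fold for Slpi. Array 2 of this pair was from 12 weeks and array 1 from 9 weeks, so age and replicate cannot be told apart there. In the homozygous pair only Slpi was above background, 1.60-fold higher in array 1. Pax8, Emx2 and Folr1 kept within 1.31-fold in the pairs of wild-type and of heterozygous arrays. Between the homozygous arrays Pax8 was 1.95-fold, Emx2 1.89-fold and Folr1 11.9-fold lower in array 1; a gap as wide as that of Folr1 was reached by 3.17% of tested genes.

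**Figure D3:**
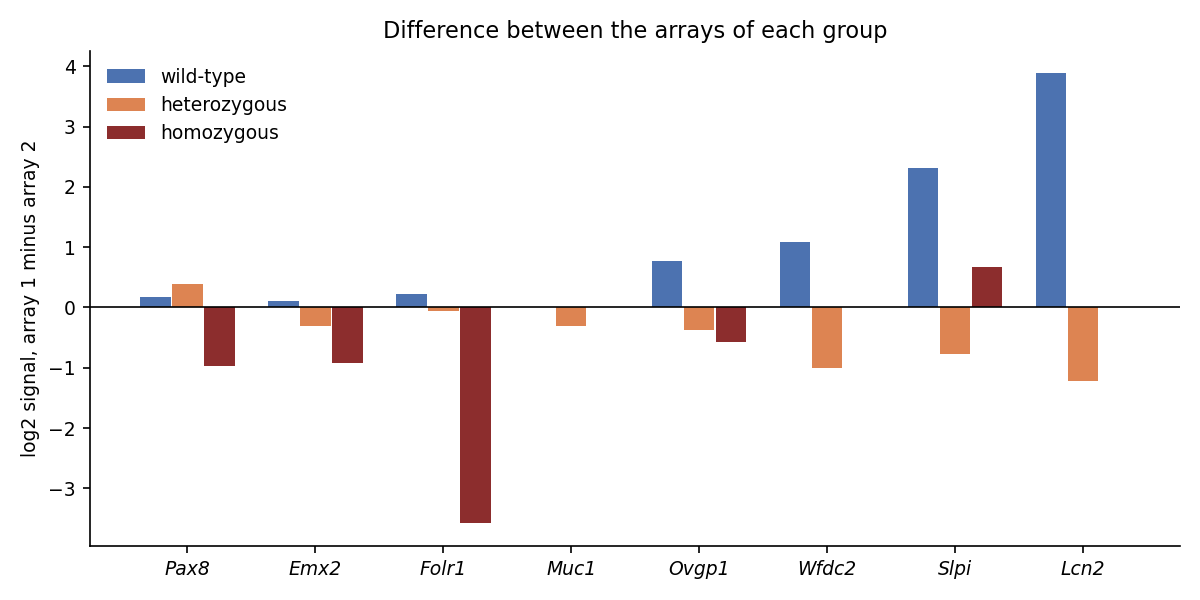
Bars give the log2 signal of array 1 minus that of array 2 in each group for the 8 markers, with no bar where both arrays lay under background. Lcn2 and Slpi differ most in the wild-type pair, with values of 3.89 and 2.32, and Folr1 in the homozygous pair, with -3.58.

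Genes with profiles most like those of the markers were sought for the 4 tested markers with the widest range. Likeness was the root mean square (RMS) difference of log2 signals over the 6 arrays, each gene centred on its mean and signals under 25 raised to 25. For Emx2 the nearest genes were H6pd (RMS 0.0536), Filip1 (0.0857) and Phyh (0.0885), and 56.9% of tested genes lay within an RMS of 1. Folr1 had Tgm2 (0.115), Rnf182 (0.116) and Tspan6 (0.143) as nearest genes, all low in homozygous array 1, with 10.7% of genes within 1. Slpi was followed by Faah (0.271), Slc43a2 (0.336) and Glb1l2 (0.348). No close match was found for Lcn2, whose nearest genes were Fut2 (0.631), Scara3 (0.737) and Adm (0.891), with only 0.055% of genes within 1. Among the tested markers themselves Pax8 and Emx2 were the most alike (RMS 0.447), and Ovgp1 and Lcn2 the least (2.26).

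**Figure D4:**
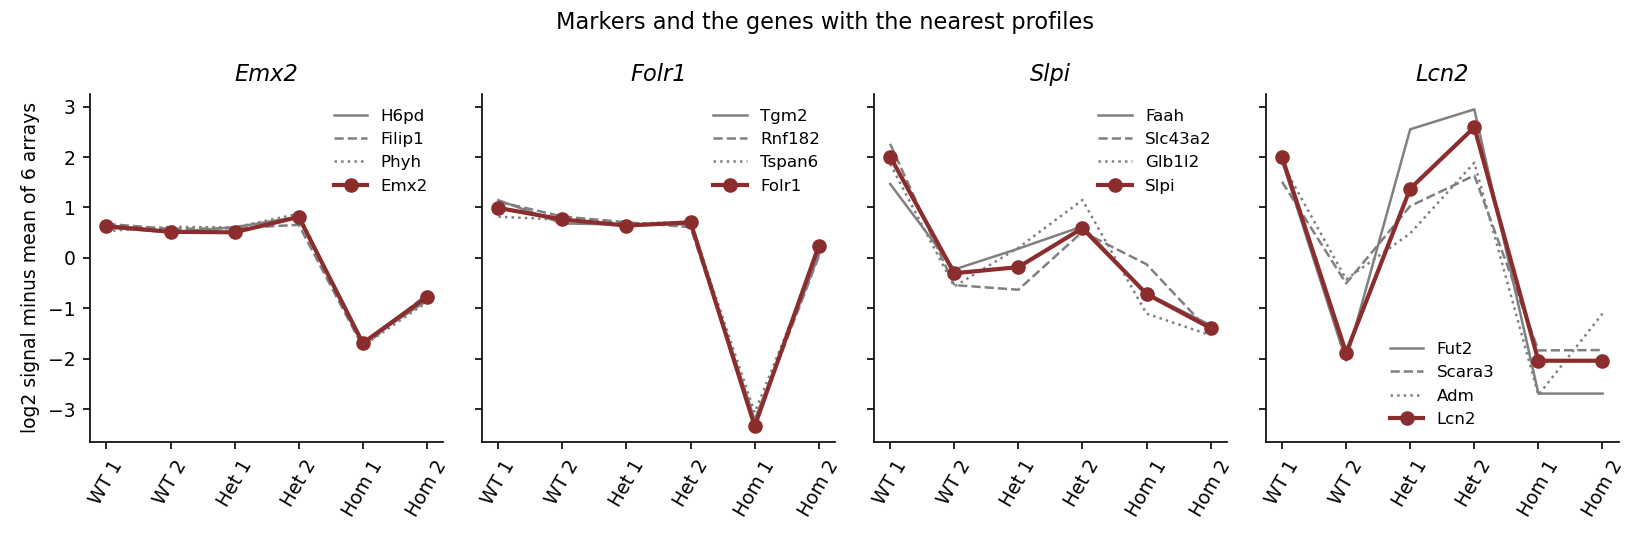
Lines show log2 signal minus the mean of the 6 arrays, with signals under 25 raised to 25, for a marker (red, points) and its 3 nearest genes (grey). The Emx2 and Folr1 lines nearly coincide with their neighbours, and those of Slpi and Lcn2 do not.

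Few genes of duct patterning passed the filter. Of 12, 3 were tested and 0 called in any comparison. Wnt4, the ligand needed for the duct to form, measured 3078 and 5657 in wild-type, 6088 and 7828 in heterozygous and 1154 and 8485 in homozygous arrays, so that homozygous array 1 was the lowest and array 2 the highest. Lhx1, another factor of the duct, was under background in every array but homozygous array 1 (37.0). Partners and targets of Pax8 gave 5 tested genes and 0 calls, among them Wt1, a factor shared by mesothelium and serous tumours, at between 13269 and 15008 in the 4 arrays with a wild-type allele and at 5949 and 8457 in homozygous cells. Wnt4, Lhx1 and Wt1 were picked once their values were known.

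Among 15 other genes of serous tumours, 10 were tested and 2 fell in homozygous cells, both against wild-type and against heterozygous cells, while 0 rose. Epcam, the epithelial adhesion molecule, measured 857 and 1242 in wild-type, 1033 and 555 in heterozygous and 27.6 and 22.2 in homozygous arrays, and fell by 5.38 ± 0.39 and fell by 4.94 ± 0.39 on the log2 scale (limma adjusted p 0.0136 and 0.0150). Both homozygous signals of Epcam lay near background, so the sizes of its falls are not exact. It passed the filter on dim genes through the other groups alone. Bcam, a laminin receptor, had 489 and 750, 751 and 914, and 108 and 104 in the same order, and fell by 2.52 ± 0.29 and fell by 2.97 ± 0.29 (limma adjusted p 0.0293 and 0.0194). Muc16, which encodes the CA125 antigen, measured 1205 and 852, 981 and 415, and 55.4 and 178, and did not pass (limma adjusted p 0.0671 and 0.0836); this gene was picked once its values were known. The calls of Epcam and Bcam ended with no filter, with the replicate block, with only the groups compared in the fit, and without any single wild-type or heterozygous array (limma adjusted p up to 0.139 and 0.119 for Epcam, 0.156 and 0.213 for Bcam); both stayed lower in homozygous cells. Under these settings no gene of the array was called against wild-type cells, so the calls of cell type genes against them end there too. With median-centred arrays the call of Bcam against wild-type cells ended as well. Of the cell type genes named below, Upk1b and Esam lost both calls there, and Pdgfra its call against wild-type cells. Rsph1 and Fcer1g lost their calls against heterozygous cells with median-centring and with quantile normalisation. With only the 2 groups compared, every cell type call against heterozygous cells ended except that of Icam2. No filter ended all of these calls but those of Icam2, Lhx9 and Lyz2, and so did the replicate block. Leaving out either heterozygous array ended every one of them, that of Icam2 included, though Icam2 stayed lower in homozygous cells. Medians of the serous list were -1.88 and -2.01. None of the mucins (1 of 10 tested), WAP domain genes (2 of 12), osteopontin receptors (6 of 10) or innate and acute phase genes (6 of 15) was called in any comparison.

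The labelled cell type was checked against 15 mesothelial and ovarian surface markers, which overlap the serous list in Krt7, Msln, Muc16 and Wt1. All 15 were above background in every array except Aldh1a2, at 1.06 in homozygous array 1. Their summed signal ran from 175940 to 217240 in wild-type, from 156210 to 195180 in heterozygous and from 60424 to 77373 in homozygous arrays, and 2 of the 15 fell against both groups. Lhx9, a factor of the gonadal surface, fell by 5.81 ± 0.32 against wild-type and fell by 5.34 ± 0.32 against heterozygous cells (limma adjusted p 0.0110 and 0.0106), and Upk1b, a uroplakin, fell by 2.42 ± 0.27 and fell by 2.05 ± 0.27 (limma adjusted p 0.0270 and 0.0360). In bulk RNA, fewer cells of a type and less RNA per cell cannot be told apart, and the low Emx2 and Folr1 signals carry the same limit. In sum these markers were lowest in the homozygous arrays. The sums of homozygous arrays 1 and 2 were near each other, but single genes differed between them. Krt7 (60.5 and 1729), Gpm6a (2007 and 10979) and Upk3b (6198 and 18766), among others, were lower in array 1, as was Folr1 (358 and 4283). Krt18 (25436 and 5623), Krt19 (8282 and 947) and Msln (2433 and 953) were higher in array 1, and Upk1b was alike (4628 and 4584). Apart from Upk1b, these genes were picked once their values were known. The part of these cells in the marker signals was not tested.

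Defining markers of ciliated oviduct cells were low or under background. Foxj1, the master factor of ciliated cells, was under background in all 6 arrays, as were Dnali1, Spag6l and Cfap52, and 1 of 9 ciliated genes was tested: Rsph1, which fell by 2.50 ± 0.30 and fell by 2.02 ± 0.30 in homozygous cells (limma adjusted p 0.0310 and 0.0404). Summed signals of the ciliated list ran from 371 to 500.1 in wild-type, from 240 to 403 in heterozygous and from 149 to 198 in homozygous arrays. Secretory cell genes, 6 of 9 tested, summed to between 23216 and 23872, between 19006 and 23191, and to 192 and 5551 in homozygous arrays 1 and 2, and 1 of them, Epcam, fell. Most of the sum is Krt7, a keratin also on the surface epithelium and serous lists, at between 11838 and 17717 in the wild-type and heterozygous arrays. Without Krt7 the sums were between 5576 and 7167 there and 131 and 3822 in homozygous arrays. Cldn3, also on the serous list, was at between 2846 and 3818 in the wild-type and heterozygous arrays. In homozygous array 2, Pgr was at 1675 and Greb1 at 1540. Sox17 (15.2 to 60.9 over the arrays), Ltf (7.86 to 55.5) and Cldn4 (5.68 to 114) did not pass the filter on dim genes. These genes were picked once their values were known.

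Immune markers moved with the secreted proteins in part. Macrophage genes summed to 3351 and 2722 in wild-type, to 5811 and 5824 in heterozygous and to 591 and 738 in homozygous arrays. Against wild-type cells 3 of 9 tested fell (Lyz2, Mpeg1 and Ctss) and against heterozygous cells 4 (also Fcer1g), with 0 rising. Lyz2 (8.98 and 4.02) and Ctss (3.55 and 22.8) lay under background in both homozygous arrays. They passed the filter on dim genes through the other groups alone, and Mpeg1 was at 27.8 and 19.4 in the homozygous arrays. The macrophage sums were highest in heterozygous and lowest in homozygous arrays, as were the group means of Lcn2 and Wfdc2. Between the wild-type arrays, with macrophage sums of 3351 and 2722, Lcn2 differed 14.8-fold. Of 11 neutrophil genes 1 was tested and 0 were called. Their signals summed to 503 and 230 in wild-type, 255 and 367 in heterozygous and 132 and 248 in homozygous arrays. The first sum was high, as was Slpi, but largely through Camp alone. Camp was at 298 in wild-type array 1 and between 4.14 and 119 in the other arrays. S100a8, Csf3r, Cxcr2, Mmp8 and Mmp9 were under background in all 6. The part of these cells in the marker signals was not tested. Fibroblast genes, which summed to between 75637 and 88324 in the wild-type and heterozygous arrays, were at 52872 in homozygous array 1 and 119080 in array 2, with 1 of 10, Pdgfra, called as lower.

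Summed signals of endothelial genes and of granulosa and theca genes were also lowest in the homozygous arrays. Endothelial genes summed to between 9106 and 10946 in the wild-type and heterozygous arrays and to 1917 and 2767 in homozygous arrays. All 3 tested of 9 fell against both groups, namely Kdr, Icam2 and Esam. Icam2 lay under background in both homozygous arrays (4.66 and 4.85) and passed the filter on dim genes through the other groups alone. Among the endothelial genes not tested, Tie1 was under background in every array, and Pecam1 and Emcn were at or under 28.6. Cdh5, Tek and Cldn5 passed background in some arrays, with highest signals of 55.8, 49.7 and 52.2. Granulosa and theca genes summed to between 10027 and 16972 in the wild-type and heterozygous arrays and to 700 and 4534 in homozygous arrays 1 and 2, with 6 of 10 tested and 0 called. Amhr2, the receptor of anti-Mullerian hormone, made up the largest share, with 8463 and 7575 in wild-type, 6364 and 7869 in heterozygous and 36.1 and 1352 in homozygous arrays, the order between the homozygous arrays being that of Folr1. The part of these cells in the marker signals was not tested.

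**Figure D5:**
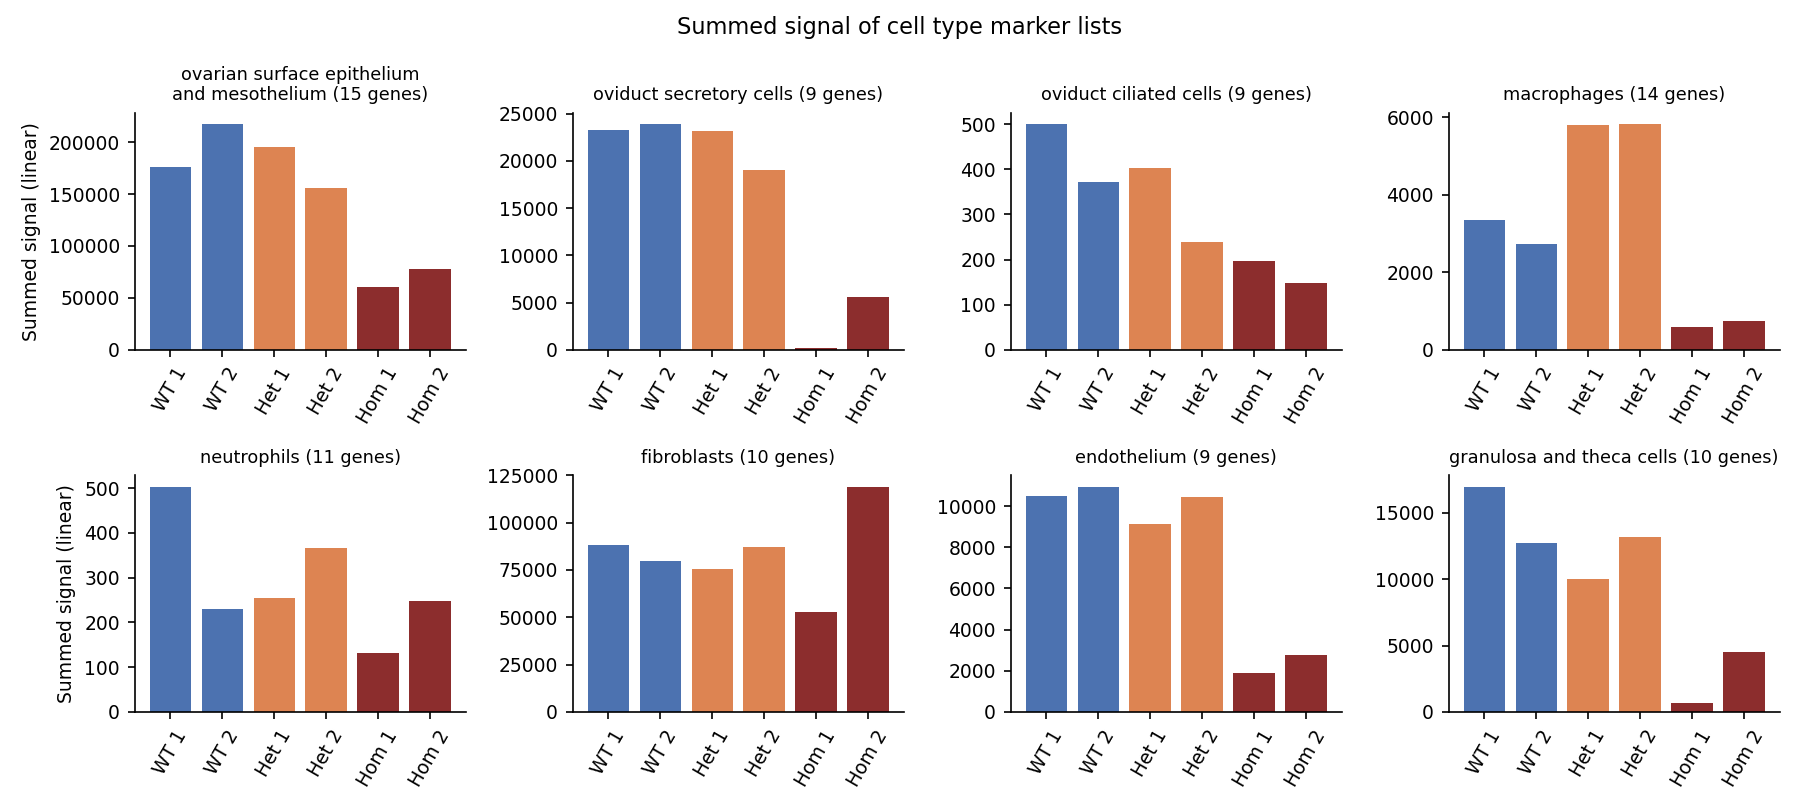
Bars give the summed signal (linear intensity) of the named genes of 8 cell type marker lists in each array. Homozygous arrays are lowest for the surface epithelium, macrophage, endothelium and granulosa and theca lists, and the oviduct secretory list is at 192 in homozygous array 1 against 5551 in array 2.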

How the data were processed

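The authors deposited probe set intensities for 45101 probe sets in 6 arrays, from biotin-labelled total RNA per the labels. RMA is named in the submitters' processing notes; no version is given in the sources used here. The deposited values are linear, with a mean of 500 in each array once the extreme 2% at either end are set aside, the form of MAS 5.0 signals rather than RMA; which method was used stays unknown. Medians per array were 60.6, 50.9, 49.7, 55.3, 41.1 and 49.0. Values were taken to log2 with no offset or renormalisation. Precision is limited by the number of arrays.

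Probe sets naming 1 symbol (34958; 932 named several and 9211 none, and were not used) were updated by Entrez identifier (34754 matched), and each gene took its brightest probe set. Genes at or above the 40th percentile of mean log2 signal, 10916, entered a limma 3.58.1 fit (R 4.3.3): 3 group means, all 6 arrays, no covariate, 3 residual and 2.26 prior degrees of freedom, Benjamini-Hochberg adjusted p under 0.05. Errors are limma standard errors. The procedure was tested on simulated data. Figures used Python 3.11.15 and matplotlib 3.10.9.

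The markers and the gene lists were chosen with earlier results of these data known. Named genes are all markers, up to 4 called genes per list and comparison, cell type markers that move with a result, and the 3 nearest profiles of the 4 tested markers with the widest range; others are said to be so. Alternatives were the log offset, a floor at 25, 2 normalisations, the filter, the probe set rule, the replicate block, the groups in the fit and leaving out each array.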

Additional observations from a re-analysis of the deposited data

How the results depend on the processing

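Of 351 recomputed marker differences, 327 counted as unchanged, 11 passed the threshold in addition, 6 moved by more than the replicate spread and 7 turned in sign. For the tested markers, unchanged means that direction and call were kept. Wfdc2 and Muc1 had no call to keep, so for them it means a shift smaller than the replicate spread. All 6 that moved belonged to Wfdc2 and Muc1. The turns were all between heterozygous and wild-type cells, for differences that passed in no setting: Ovgp1 was 0.0395 with quantile normalisation and 0.0504 with median-centred arrays. With single arrays left out Ovgp1 ran from -0.42 to 0.35, Slpi from -1.81 to 0.51, Lcn2 from -0.0197 to 3.87 and Emx2 from -0.0659 to 0.24. The number of called markers rose from 0 to 1, namely Emx2, against wild-type cells with 16 added or the filter at the 60th percentile, and to 1 against heterozygous cells with these or with signals raised to 25. Leaving out single arrays gave 0 to 3 called markers in each comparison with homozygous cells, the 3 (Pax8, Emx2 and Folr1) without homozygous array 2.

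Calls over all genes, 291 against wild-type and 446 against heterozygous cells, were 656 and 762 with 16 added, 669 and 799 with signals raised to 25, 190 and 281 with a gene's probe sets averaged, 0 and 17 with no filter, and 0 and 9 with only the 2 groups compared. They ran from 0 to 2663 and from 0 to 2841 with single arrays left out, the highest without homozygous array 2. With the replicate block they were 0 and 19. The titles give same-numbered arrays no link beyond the number. Correlations of their deviations were -0.303, -0.0997 and 0.155, which with 2 arrays a group cannot settle whether they were handled together. With the replicate block 0 markers were called. Median-centring moved the median of all genes against wild-type cells from -0.09 to 0.22 and turned no marker's sign in the comparisons with homozygous cells. Signals under 25 carry no order, which limits Muc1, Wfdc2 and Lcn2.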
